A study of Mus musculus with 50 samples.

Results

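The 5 genes Ccr9, Ccl25, Itga4, Itgb7 and Itgae, which guide lymphocytes to the small intestine, were followed through mouse lymph nodes on a vitamin A deficient and on a vitamin A sufficient diet. They were taken by gene symbol from a table of 56600 entries, and all 5 were among the 18387 genes with enough counts to be tested. CCR9 is a chemokine receptor of lymphocytes that home to the small intestine, and its ligand CCL25 is made by the epithelium of the small intestine and of the thymus. The integrin α4β7, built from the products of Itga4 and Itgb7, holds lymphocytes to the vascular addressin MAdCAM-1, and αEβ7, built from the products of Itgae and Itgb7, binds E-cadherin on epithelial cells. In mice, dendritic cells of gut-draining nodes make retinoic acid from vitamin A, and T cells primed with retinoic acid are known to gain CCR9 and α4β7, whereas Itgae is known as a target of TGF-β and is carried by intraepithelial T cells, by type 1 conventional dendritic cells and by many regulatory T cells.

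The 50 poly(A) RNA libraries came from whole lymph nodes of mice of genotype C57B6 at postnatal day 56, with 5 libraries for each of 2 diets and 5 nodes. Deficient mice were offspring of C57BL/6J dams on a vitamin A deficient diet from 3 weeks before breeding, and all deficient libraries are labelled female. Sufficient mice were offspring of dams on the matched diet with 20 IU/g of vitamin A, also from 3 weeks before breeding. The age of the dams is given as 7 to 8 weeks for both diets. In sufficient mice libraries 1 and 2 of each node are labelled female and libraries 3, 4 and 5 male. The nodes drained the duodenum, jejunum, ileum and colon, and the inguinal node drains skin. Each dam received 1 diet, and effects of dam and litter cannot be told apart from those of the diet. Nodes of 1 mouse are not matched in the labels, and the p-values therefore rest on the spread among libraries.

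Estimated counts totalled 5335369 to 8904722 per library (median 7640371). The B cell marker list summed to 2212 to 3824 CPM (counts scaled to library size) in deficient and 1900 to 3786 CPM in sufficient libraries, and the T cell list to 1078 to 1559 CPM in deficient and 974 to 1608 CPM in sufficient libraries. The 10 deficient libraries inguinal 2, 3 and 5, colonic 2, 3 and 5, ileal 2 and 3, jejunal 3 and duodenal 3 stood apart by a low share of counts of Gm19220, 1.03 to 1.70% against 5.37 to 9.83% elsewhere. In 2 duodenal libraries, deficient 4 and sufficient 5, pancreatic genes took 16.7 and 18.5% of counts. Levels below are CPM after scaling by TMM (trimmed mean of M-values), means are ± SD with n = 5 libraries, log2 fold changes are ± standard error (SE), and adjusted p-values are from edgeR's quasi-likelihood test with Benjamini-Hochberg adjustment over all 18387 genes. A gene was called where its adjusted p was under 0.05.

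Ccr9, the receptor, fell in deficient nodes at all 5 sites (Ensembl ENSMUSG00000029530, GRCm38 chromosome 9, 123678439 to 123784330, plus strand). It was one of 17 genes, 0.0925% of those tested, that were lower on the deficient diet in every node. In duodenal nodes Ccr9 stood at 29.5, 17.4, 22.7, 26.5 and 31.0 CPM in the deficient libraries, against 46.5, 49, 49.4, 46.1 and 50.4 CPM in the sufficient libraries. The highest deficient library lay well below the lowest sufficient one, and the log2 fold change was −1.0 ± 0.15 (adjusted p = 1.31e-05, where 10.1% of all genes were called). In jejunal nodes it stood at 27.6, 24, 23.7, 38.2 and 24.7 CPM in deficient and at 50.4, 47.3, 44.3, 47.1 and 42.9 CPM in sufficient libraries. The groups did not overlap there either, although deficient library 4 stood far above the other deficient libraries, and the log2 fold change was −0.82 ± 0.15 (adjusted p = 0.00045, 4.55% of genes called). Ileal nodes held 24.6, 24.2, 26.3, 25.8 and 21.7 CPM in deficient and 42.2, 32.1, 38.8, 35.7 and 38.4 CPM in sufficient libraries. All 5 deficient ileal libraries were below all 5 sufficient ones, with a log2 fold change of −0.69 ± 0.15 (adjusted p = 0.00321, 5.7% of genes called).

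Colonic nodes held 20.3, 26.0, 19.8, 28.2 and 28.0 CPM of Ccr9 in deficient and 29.7, 37.0, 30.7, 40.9 and 33.9 CPM in sufficient libraries. The groups came close without overlapping, and the log2 fold change was −0.57 ± 0.16 (adjusted p = 0.037, 2.22% of genes called). In inguinal nodes Ccr9 stood at 28.4, 20.4, 19.5, 27.5 and 29.5 CPM in deficient and at 47.8, 48.2, 27.0, 33.2 and 35.7 CPM in sufficient libraries. Here the groups overlapped, because male library 3 on the sufficient diet reached only 27.0 CPM, while both sufficient female libraries stood above every deficient library. The log2 fold change was −0.68 ± 0.15 (adjusted p = 0.015, 0.838% of genes called). Libraries lower on the deficient diet without overlap in a given node were found for 2.96, 2.71, 3.08 and 1.90% of all genes in duodenal, jejunal, ileal and colonic nodes. Averaged over the 4 gut-draining nodes, Ccr9 changed by −0.77 ± 0.09 (adjusted p = 1.16e-08, 20.2% of genes called). In whole nodes, fewer cells that carry a transcript and less of it per cell cannot be told apart, and this holds for every difference below.

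The colonic Ccr9 call was the least secure of the 5. It was lost under 13 of 23 alternative settings, among them female mice only (−0.44 ± 0.20, adjusted p = 0.462), the omission of deficient number 1 or 3 (adjusted p = 0.125 and 0.0918) and that of any of the 5 sufficient numbers (adjusted p = 0.0557 to 0.125). The inguinal call was lost under 6, among them the omission of deficient number 3 (adjusted p = 0.0577), sufficient number 1 or 2 (adjusted p = 0.124 and 0.111) and the low Gm19220 libraries (−0.53 ± 0.19, adjusted p = 0.407). Also among the 6 was the fit on inguinal libraries alone, where the value was larger (−0.95 ± 0.18, adjusted p = 0.0828). The duodenal and jejunal calls and that over the gut-draining mean were kept under all alternatives run for them. In the 10 deficient libraries with a low Gm19220 share Ccr9 averaged 24 ± 3.46 CPM, against 26.4 ± 4.88 CPM in the other 15 deficient libraries. Without those 10 libraries the gut-draining mean was −0.76 ± 0.10 (adjusted p = 8.27e-07).

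**Figure D1:**
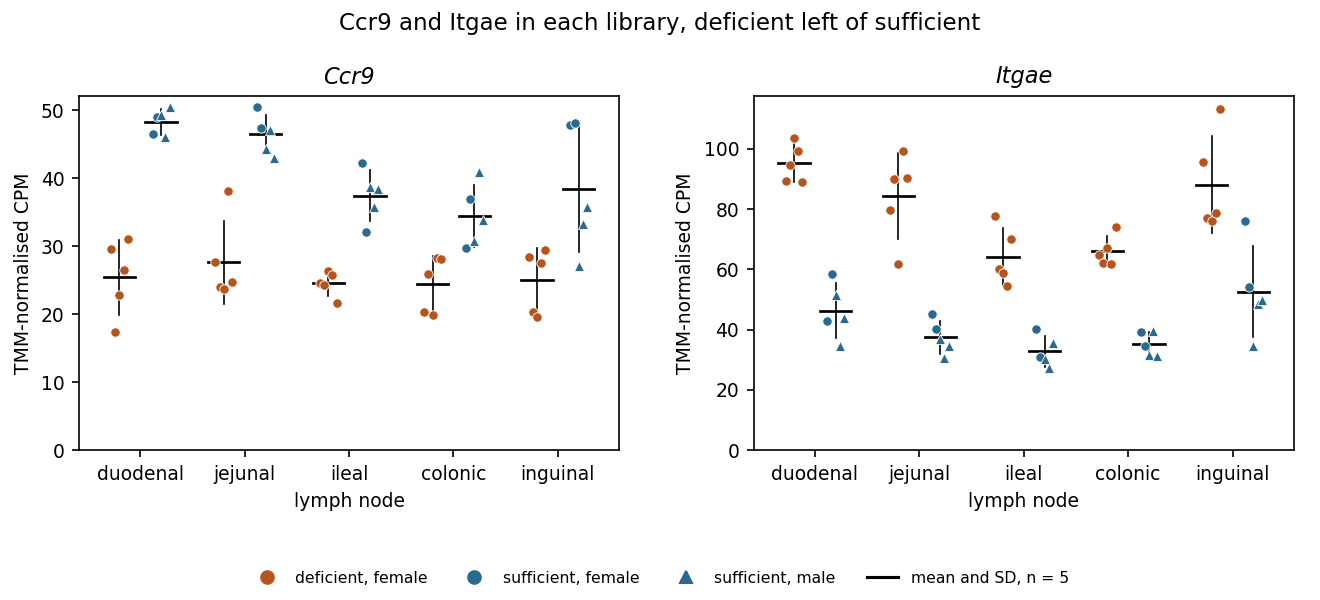
TMM-normalised CPM of Ccr9 (left) and Itgae (right) in each library by lymph node, deficient left of sufficient. Circles are female and triangles male mice, horizontal bars are means and vertical lines SDs of 5 libraries. Deficient libraries lie below sufficient ones for Ccr9 and above them for Itgae in the 4 gut-draining nodes without overlap, and the groups overlap in the inguinal node.

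The spread of Ccr9 between nodes was wider on the sufficient diet. In deficient mice the 5 node means ran from 24.5 ± 4.12 CPM in colonic nodes to 27.6 ± 6.09 CPM in jejunal nodes, and none of the 10 pairs of nodes differed (smallest adjusted p = 0.742, and none with an unadjusted p under 0.05). In sufficient mice the order ran from duodenal (48.3 ± 1.9 CPM) and jejunal (46.4 ± 2.91 CPM) over inguinal (38.4 ± 9.32 CPM) and ileal (37.4 ± 3.74 CPM) to colonic nodes (34.4 ± 4.61 CPM). No 2 neighbours in that order differed beyond their spread, and of the 10 pairs only duodenal against colonic was called (log2 fold change 0.49 ± 0.14, adjusted p = 0.0488, 2.9% of genes called). That call was lost under 11 of 23 alternatives, including the omission of any of the 5 sufficient numbers (adjusted p = 0.0576 to 0.171). Small intestinal against colonic nodes gave 0.08 ± 0.12 in deficient mice (adjusted p = 0.918, 1.77% of genes called) and 0.35 ± 0.12 in sufficient mice (adjusted p = 0.102, 3.83% of genes called). The sufficient value was called under 2 alternatives, at 0.35 ± 0.11 with limma-voom and a correlation within numbers (adjusted p = 0.0466) and at 0.35 ± 0.10 with the sufficient libraries alone (adjusted p = 0.0441). The test of the difference between these values was not passed (interaction −0.27 ± 0.17, 95% interval −0.60 to 0.07, adjusted p = 0.913).

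The annotated start of Ccr9 that RefSeq uses lies inside the longer gene span given above. The window around it is shown because Ccr9 fell with the diet, and it was searched for the 6-letter core of response elements of the retinoic acid receptor on both strands. The core was spelled AGGTCA or AGTTCA with A as its first letter, and as GGGTCA or GGTTCA with G in its place, which makes 4 spellings. Windows reach from 250 bases before to 50 bases after an annotated start. Of 32851 such windows in the mouse genome, 43.7% held at least 1 of the 4 spellings. The Ccr9 window, chr9:123766961-123767260 on the plus strand of GRCm38.p6, held none and stands in lower case throughout.
Ccr9: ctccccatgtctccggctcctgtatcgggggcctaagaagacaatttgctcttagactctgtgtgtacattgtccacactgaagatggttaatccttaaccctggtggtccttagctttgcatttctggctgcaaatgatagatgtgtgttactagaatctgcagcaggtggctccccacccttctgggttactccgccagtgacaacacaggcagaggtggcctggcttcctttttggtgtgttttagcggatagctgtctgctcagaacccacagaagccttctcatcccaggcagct
Exons of the antisense entry Gm17021 share 1932 bases with exons of Ccr9. The sources used here do not give the counting strand, so reads there could belong to either gene, as they could for 269 bases shared with Gm17200 on the same strand. Gm17021 itself averaged 0.915 ± 0.527 CPM over deficient and 1.00 ± 0.775 CPM over sufficient libraries, and Gm17200 0.66 ± 0.387 CPM over deficient and 1.09 ± 0.59 CPM over sufficient libraries (n = 25 each).

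Ccl25, the ligand of CCR9, was scarce in the nodes and did not pass the test between diets (ENSMUSG00000023235, chromosome 8, 4325210 to 4360020, plus strand). It ranged from 4.27 to 10.2 CPM over the 25 deficient libraries, with 31.4 to 73.5 estimated counts, and from 3.41 to 8.08 CPM over the 25 sufficient libraries, with 26.7 to 73.3 estimated counts. The node means lay between 6.04 ± 1.51 and 7.82 ± 1.65 CPM in deficient mice and between 5.39 ± 1.3 and 6.89 ± 1.44 CPM in sufficient mice, with the highest mean in colonic nodes on both diets and overlap between diets in every node. Log2 fold changes between diets ran from −0.05 in ileal to 0.33 in jejunal nodes (adjusted p = 0.37 to 0.965), and the 95% intervals of the 6 diet comparisons reached from −0.48 to 0.76. None of its 20 pairs of nodes was called, and neither these nor the diet comparisons had an unadjusted p under 0.05. The intestinal epithelium list, which marks the tissue where Ccl25 is made, summed to 25.6 to 45.9 CPM in deficient and to 26.8 to 49.9 CPM in sufficient libraries, and 6 of its 10 genes were tested. The tested genes Epcam, Lgals4, Fabp1 and Cdh17 had a count of at least 1 in all 50 libraries, with up to 95.7, 223, 129 and 45.5 estimated counts, whereas Cdx2 and Alpi had at most 2.00 and 0.988 estimated counts. The part of epithelial RNA in the Ccl25 counts was not tested.

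RefSeq gives 2 starts for Ccl25. The first window held no match, and the second is shown because it held 3 of the 6-letter cores next to the level that did not change detectably with the diet. The matches lie on the plus strand, starting 177 and 42 bases before the annotated start and at its first base, and are in capitals in chr8:4349338-4349637 (plus strand, GRCm38.p6). A match describes letters and is not evidence that a receptor binds there. Exons of Ccl25 share 204 bases with those of Elavl1 on the other strand, which averaged 61.4 ± 5.9 CPM over deficient and 69.2 ± 8.28 CPM over sufficient libraries (n = 25 each), so part of the low Ccl25 counts could belong to it.
Ccl25: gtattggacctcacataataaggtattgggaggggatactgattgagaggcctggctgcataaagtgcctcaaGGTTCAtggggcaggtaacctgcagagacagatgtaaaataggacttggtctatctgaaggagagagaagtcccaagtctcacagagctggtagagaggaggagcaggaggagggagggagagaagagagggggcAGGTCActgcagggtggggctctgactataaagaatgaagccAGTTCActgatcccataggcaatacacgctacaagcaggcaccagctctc

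Itga4 and Itgb7, which encode the chains of α4β7, were not called between diets in any node. Itga4 (ENSMUSG00000027009, chromosome 2, 79255426 to 79333123, plus strand) ran from 113 over a median of 175 to 252 CPM in the 25 deficient libraries and from 90.1 over 160 to 275 CPM in the 25 sufficient libraries. The diets overlapped in every node. Its diet log2 fold changes lay between −0.33 in duodenal and 0.04 in ileal nodes (adjusted p = 0.298 to 1), with 95% intervals from −0.73 to 0.43. The order of node means differed between the diets, from duodenal (155 ± 32 CPM) up to colonic nodes (202 ± 50 CPM) in deficient mice and from ileal (158 ± 41.7 CPM) up to inguinal nodes (186 ± 56.3 CPM) in sufficient mice. Of the 20 pairs of nodes none was called with edgeR and 1 had an unadjusted p under 0.05, so neither order stands out from the spread of the libraries. Exons of Itga4 share 1124 bases with Cerkl on the other strand, which averaged 3.69 ± 1.93 CPM over deficient and 4.82 ± 1.44 CPM over sufficient libraries (n = 25 each).

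Itgb7 (ENSMUSG00000001281, chromosome 15, 102215995 to 102231944, minus strand), whose product also pairs with the Itgae product, ran from 255 over 315 to 386 CPM in deficient and from 238 over 355 to 472 CPM in sufficient libraries. All 5 nodes overlapped. Diet log2 fold changes were between −0.13 in inguinal and 0.09 in duodenal nodes (adjusted p = 0.704 to 0.97), with 95% intervals from −0.38 to 0.34. Over the gut-draining mean the value was 0.02 ± 0.07 (adjusted p = 0.878), and without the sex term it turned to −0.17 ± 0.07 (adjusted p = 0.0427). With female mice only it was 0.04 ± 0.08 (adjusted p = 0.768). Node means ran from ileal (290 ± 34.2 CPM) up to duodenal nodes (333 ± 46.4 CPM) in deficient mice and from ileal (312 ± 49.1 CPM) up to inguinal nodes (384 ± 48.9 CPM) in sufficient mice. None of the 20 pairs of nodes was called (smallest adjusted p = 0.0614), and 2 had an unadjusted p under 0.05. The promoter window of Itgb7, chr15:102231886-102232185 on the minus strand of GRCm38.p6, held 1 core, GGGTCA read on the opposite strand, 146 bases before the start. It is shown beside that of Ccr9 as a partner gene that did not change detectably, with the match in capitals, and the Itga4 window held none.
Itgb7: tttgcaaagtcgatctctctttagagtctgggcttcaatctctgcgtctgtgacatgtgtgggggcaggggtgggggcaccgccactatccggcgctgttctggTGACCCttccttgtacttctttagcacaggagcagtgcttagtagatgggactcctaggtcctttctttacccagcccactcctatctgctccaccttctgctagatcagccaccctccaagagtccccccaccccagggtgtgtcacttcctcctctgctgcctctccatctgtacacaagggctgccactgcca

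**Figure D2:**
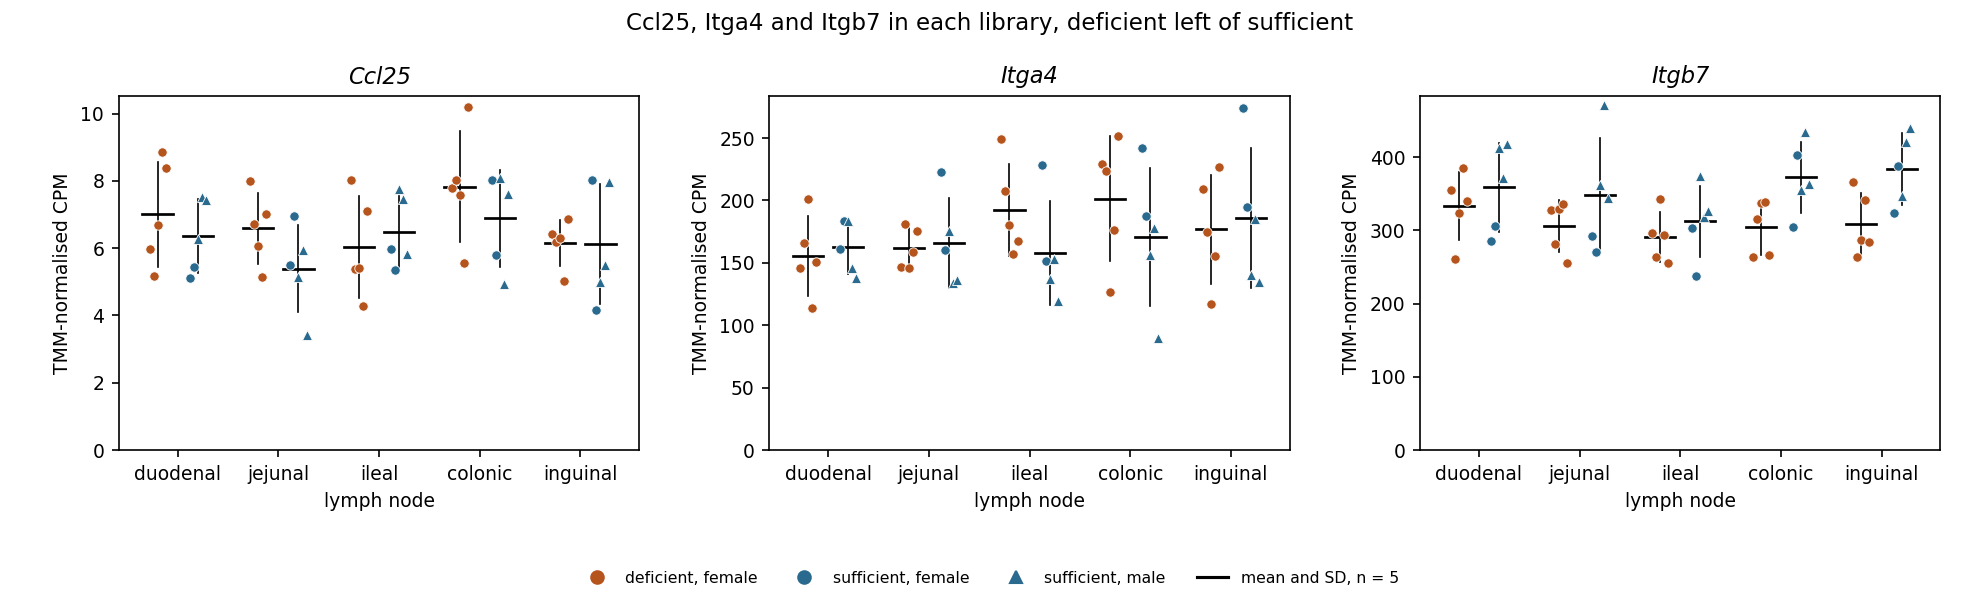
TMM-normalised CPM of Ccl25, Itga4 and Itgb7 in each library by lymph node, deficient left of sufficient, with circles for female and triangles for male mice and with means and SDs of 5 libraries. The diets overlap in every node, and the male libraries of the sufficient diet tend to lie low for Itga4 and high for Itgb7.

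Itgae, the αE chain known as CD103, rose in deficient nodes at all 5 sites (ENSMUSG00000005947, chromosome 11, 73090583 to 73147446, plus strand). It was one of 32 genes, 0.174% of those tested, that were higher on the deficient diet in every node. Duodenal nodes held 89.4, 94.7, 104, 99.4 and 89.0 CPM in deficient and 43.0, 58.5, 51.4, 34.5 and 43.9 CPM in sufficient libraries. No deficient library came near the sufficient ones, and the log2 fold change was 0.87 ± 0.14 (adjusted p = 3.69e-05). Jejunal nodes held 79.8, 90.0, 61.8, 99.2 and 90.4 CPM in deficient and 45.2, 40.1, 36.8, 30.6 and 34.6 CPM in sufficient libraries. Deficient library 3 was the lowest of its group and still above every sufficient library, and the log2 fold change was 1.00 ± 0.14 (adjusted p = 5.1e-06). Ileal nodes held 77.8, 60.1, 58.7, 54.4 and 70.0 CPM in deficient and 40.2, 30.9, 30.2, 27.1 and 35.5 CPM in sufficient libraries. The groups did not overlap, and the log2 fold change was 0.80 ± 0.14 (adjusted p = 0.00022).

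Colonic nodes held 64.9, 62.2, 67.0, 61.9 and 74.1 CPM of Itgae in deficient and 39.1, 34.5, 31.5, 39.7 and 31.2 CPM in sufficient libraries. They too were separate, with a log2 fold change of 0.73 ± 0.15 (adjusted p = 0.00222). Inguinal nodes held 95.6, 77.1, 75.9, 78.8 and 113 CPM in deficient and 76.1, 54.1, 34.4, 48.5 and 49.8 CPM in sufficient libraries. Sufficient female library 1 reached into the deficient range there, and the log2 fold change was 0.59 ± 0.14 (adjusted p = 0.0246). Over the gut-draining mean Itgae rose by 0.85 ± 0.09 (adjusted p = 4.22e-10). Libraries higher on the deficient diet without overlap were found for 3.69, 2.75, 2.63 and 2.04% of all genes in duodenal, jejunal, ileal and colonic nodes. With female mice only the inguinal value was 0.43 ± 0.17 (adjusted p = 0.325), and that call was lost under 8 of 23 alternatives. Among these were the omission of deficient number 1 or 5 (adjusted p = 0.0665 and 0.0984) and of sufficient number 2, 3 or 5 (adjusted p = 0.171, 0.106 and 0.064). The colonic call was lost without the 10 libraries of low Gm19220 share (0.67 ± 0.17, adjusted p = 0.0612) and the ileal call with the ileal libraries alone (0.86 ± 0.18, adjusted p = 0.0645), and the duodenal, jejunal and gut-draining calls were kept throughout.

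Of the 5 genes, 2 were thus called in each of the 6 diet comparisons, always Ccr9 lower and Itgae higher, which makes 12 of 30 comparisons. The shares of all genes called were 10.1% in duodenal, 4.55% in jejunal, 5.7% in ileal, 2.22% in colonic and 0.838% in inguinal nodes. Over the gut-draining mean the share was 20.2%. That mean is taken over the gut-draining nodes, so its calls are not separate from those of the single nodes.

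**Figure D3:**
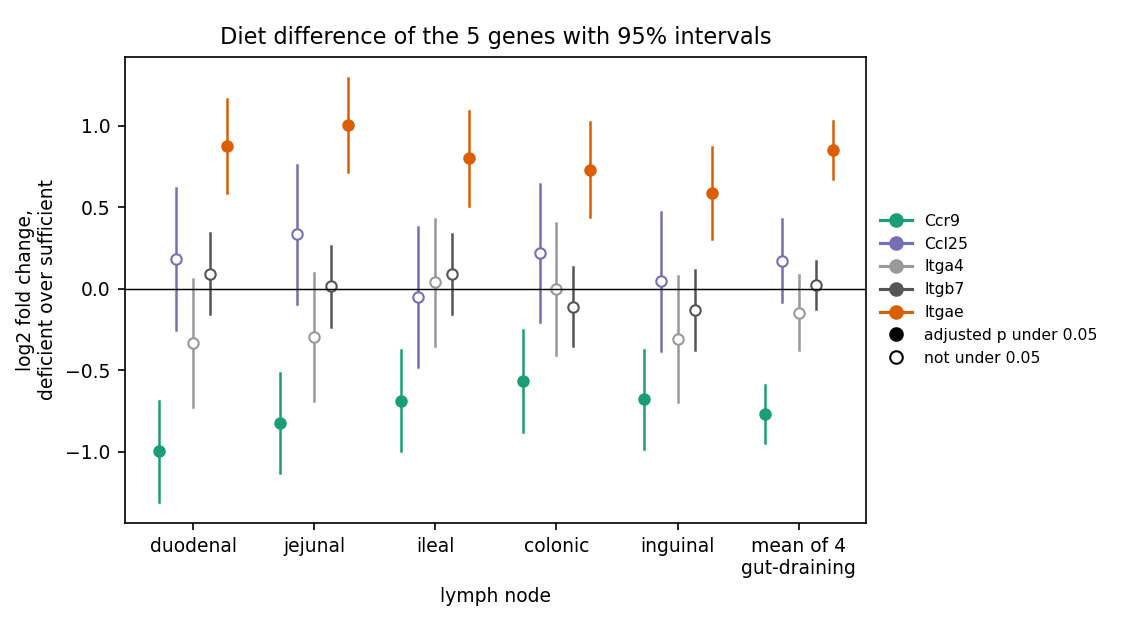
Log2 fold change, deficient over sufficient, of the 5 genes in each lymph node and in the mean of the 4 gut-draining nodes, with 95% intervals and filled points where the adjusted p was under 0.05. Ccr9 lies between −1.0 and −0.57 and Itgae between 0.59 and 1.00, and the intervals of Ccl25, Itga4 and Itgb7 all include 0.

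Itgae also differed between nodes. In deficient mice its means ran, from high to low, through duodenal (95.2 ± 6.33 CPM), inguinal (88.1 ± 16.2 CPM), jejunal (84.3 ± 14.3 CPM), colonic (66 ± 4.97 CPM) and ileal nodes (64.2 ± 9.51 CPM). In sufficient mice they ran through inguinal (52.6 ± 15.1 CPM), duodenal (46.3 ± 9.12 CPM), jejunal (37.4 ± 5.52 CPM), colonic (35.2 ± 4.02 CPM) and ileal nodes (32.8 ± 5.13 CPM). Neighbours in either order did not differ beyond their spread (adjusted p = 0.205 to 0.991), and 7 pairs farther apart were called. Duodenal nodes exceeded ileal nodes by 0.57 ± 0.13 in deficient mice (adjusted p = 0.00361, 5.6% of genes called) and by 0.49 ± 0.14 in sufficient mice (adjusted p = 0.0148, 8.07% of genes called). Without deficient number 4 or without the low Gm19220 libraries the deficient value was 0.49 ± 0.15 or 0.45 ± 0.15 (adjusted p = 0.0685 and 0.0879). Without sufficient number 2 or 3 or with female mice only the sufficient value was 0.39 ± 0.15, 0.41 ± 0.15 or 0.51 ± 0.21 (adjusted p = 0.133, 0.0953 and 0.365). In deficient mice duodenal nodes also exceeded colonic nodes (0.53 ± 0.13, adjusted p = 0.011, 3.26% of genes called) and ileal nodes lay below inguinal nodes (−0.46 ± 0.13, adjusted p = 0.0231, 6.19% of genes called). In sufficient mice jejunal, ileal and colonic nodes each lay below inguinal nodes. The jejunal value was −0.48 ± 0.13 (adjusted p = 0.00857, 16.9% of genes called), the ileal value −0.67 ± 0.14 (adjusted p = 0.000258, 15.9% of genes called) and the colonic value −0.56 ± 0.14 (adjusted p = 0.00843, 4.25% of genes called). Only the ileal pair of sufficient mice was called under all alternatives run for it. The calls of the 4 others were lost without 1 or more numbers of their diet. These were deficient 2 or 4 for duodenal against colonic (adjusted p = 0.083 and 0.0794) and deficient 2, 4 or 5 for ileal against inguinal (adjusted p = 0.0705, 0.0963 and 0.149). In sufficient mice they were number 1 for jejunal (adjusted p = 0.0724) and number 1 or 5 for colonic against inguinal (adjusted p = 0.106 and 0.062). Gut-draining nodes lay below inguinal nodes by −0.47 ± 0.10 in sufficient mice (adjusted p = 0.000737, 16.9% of genes called), against −0.21 ± 0.10 in deficient mice (adjusted p = 0.303, 5.71% of genes called). The difference between these values was 0.26 ± 0.15 (95% interval −0.03 to 0.56) and was not called (adjusted p = 0.52).

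Over all 5 genes, 1 of 15 node comparisons was called in deficient and 2 of 15 in sufficient mice, all 3 for Itgae. In deficient mice 5.71, 1.77 and 5.6% of all genes were called for gut-draining against inguinal, small intestinal against colonic and duodenal against ileal nodes. In sufficient mice the shares were 16.9, 3.83 and 8.07%, and the counts are of the order of these shares. None of 15 interactions between diet and region was called with edgeR, where 0.919, 0.0816 and 0.223% of all genes were called for gut-draining against inguinal, small intestinal against colonic and duodenal against ileal nodes, none was called in any alternative fit that gave the interactions, and none had an unadjusted p under 0.05. The 95% intervals of the 3 Ccr9 interactions together reached from −0.72 to 0.23 and those of Itgae from −0.30 to 0.56. Differences of the diet effect between regions that lie inside the interval of a comparison are not excluded.

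Sex was compared within the sufficient mice, where libraries 3, 4 and 5 are male. Itgb7 was higher in males (log2 fold change 0.31 ± 0.07, adjusted p = 0.00204), and Itga4 and Itgae were lower (−0.44 ± 0.12, adjusted p = 0.00401, and −0.29 ± 0.09, adjusted p = 0.0112), whereas Ccr9 and Ccl25 were not called (−0.12 ± 0.09, adjusted p = 0.345, and 0.07 ± 0.13, adjusted p = 0.744). In that comparison 26.3% of all genes were called, so 3 of 5 genes stands against a high background. Itgb7 averaged 400 ± 25.3 CPM in male (n = 3) and 296 ± 14.1 CPM in female (n = 2) duodenal libraries, and Itga4 averaged 141 ± 45.7 CPM in male and 215 ± 38.9 CPM in female colonic libraries. With 2 female and 3 male numbers, sex and number cannot be told apart in these mice. The p-values take libraries of 1 number as independent and may be too small.

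Ribosomal protein genes moved with Itgb7 across libraries. The 5 genes whose log2 CPM followed Itgb7 most closely over the 50 libraries, among 12226 genes with at least 5 CPM, were Rps18, Rplp0, Rpl30, Rps10 and Rps21 (Pearson r = 0.871 to 0.85), and r with the sum of 78 ribosomal protein genes was 0.845. That sum took 6.92% of counts in sufficient male libraries, 5.71% in sufficient female and 5.88% in deficient libraries, and 72 of the 78 genes were higher in males. Itga4 followed Hivep2, Vps13b, Med14, Lrch3 and Nfatc3 (r = 0.896 to 0.889) and ran against the ribosomal sum (r = −0.569). The longest annotated transcripts of those 5 genes are 5536 to 13757 bases, against 481 to 2412 bases for the 5 genes nearest to Itgb7. Library quality measures were not available, and the part of transcript length or RNA quality in these relations was not tested. Itga4 and Itgb7, partners in α4β7, had an r of −0.322 with each other. All such r values are descriptions over libraries that share nodes, diets and scaling.

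Ccr9 followed a set of genes that fell with it. Its 5 nearest genes were Art2b and Art2a, ADP-ribosyltransferases of T cells, Adgre5 (CD97), the lymphocyte GTPase gene Gimap4 and Prrt1 (r = 0.84 to 0.812), and all 5 were among the 17 genes lower on the deficient diet in every node. Over the gut-draining mean Art2b fell by 2.68 on the log2 scale (SE 0.12, adjusted p = 3.45e-22) and Gimap4 by 0.55 (SE 0.04, adjusted p = 9.03e-14). These genes were picked by r over both diets, as were those of Itgae below, so their diet differences were partly given by that choice. Within a diet the relations were looser, with r for Art2b of 0.236 over the 25 deficient and 0.59 over the 25 sufficient libraries. No gene followed Ccl25 closely, the highest r being 0.483 for Ccdc167.

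Itgae followed Haspin, Foxp3, H2-M2, Cracr2a and Irf2bpl (r = 0.89 to 0.851). Haspin, a histone kinase gene, lies inside Itgae on the opposite strand and shares no exon base with it. It averaged 16.7 ± 2.77 CPM over deficient and 10 ± 1.62 CPM over sufficient libraries (n = 25 each) and rose by 0.77 ± 0.09 over the gut-draining mean (adjusted p = 4.8e-08). Since the counting strand is not given, reads from unspliced Itgae RNA in this interval could have been counted for Haspin. Foxp3, the factor that defines regulatory T cells, rose by 0.63 ± 0.12 over the gut-draining mean (adjusted p = 9.5e-05), and its r with Itgae was 0.832 within the deficient and 0.82 within the sufficient libraries. In single nodes Foxp3 was called in duodenal and ileal nodes (adjusted p = 0.00141 and 0.00987). Unlike Itgae, it was not called in jejunal, colonic or inguinal nodes (adjusted p = 0.102, 0.574 and 0.541).

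Ccr9 and Itgae ran opposite to each other over all libraries, but not within a diet. Their r was −0.553 over the 50 libraries, against 0.24 within the 25 deficient and 0.474 within the 25 sufficient libraries, and 0.453 after the group means were taken off. The sign over all libraries was thus opposite to the sign within each diet, although the deficient r was weak and none of these values was tested.

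**Figure D4:**
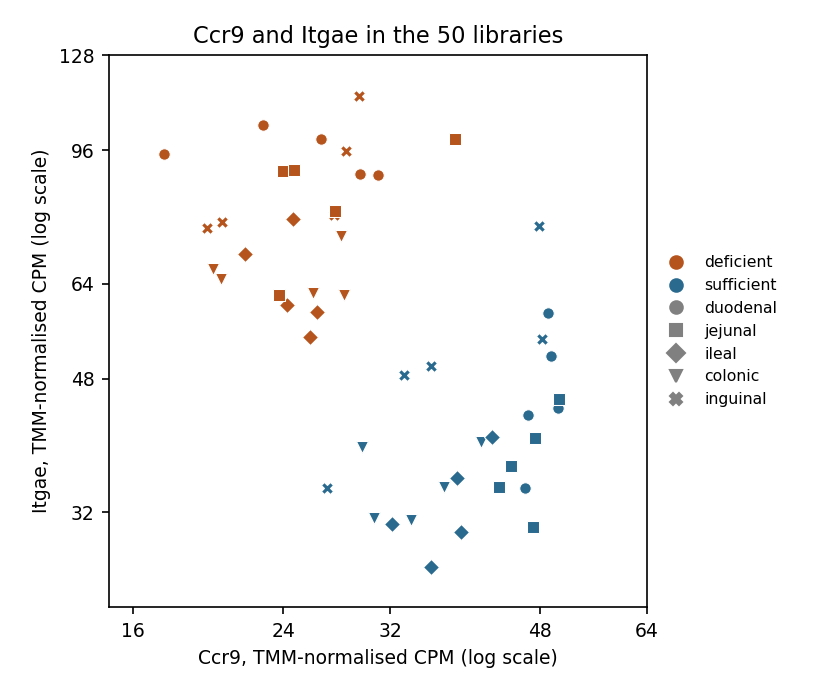
Ccr9 against Itgae in the 50 libraries, both as TMM-normalised CPM on log axes, coloured by diet and shaped by lymph node. Deficient libraries lie at 17.4 to 38.2 CPM of Ccr9 and 54.4 to 113 CPM of Itgae, and sufficient libraries at 27.0 to 50.4 and 27.1 to 76.1 CPM.

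Genes that make and break down retinoic acid were examined beside the 5 genes, over the gut-draining mean unless a node is named. Of 11 tested genes of retinoic acid signalling, 4 fell and 2 rose, with a median log2 fold change of 0.05, against −0.003 over all genes. Of all genes 11.3% rose and 8.92% fell over this mean, which makes the 20.2% called, and the counts of the lists below stand beside these shares. Aldh1a2, the retinaldehyde dehydrogenase of gut dendritic cells, fell by 3.69 (SE 0.18, adjusted p = 2.9e-20) and stood at 1.98 ± 0.725 CPM in deficient and 55.0 ± 16.8 CPM in sufficient duodenal nodes. In inguinal nodes it was low on both diets, at 1.43 ± 0.679 CPM in deficient and 2.56 ± 0.419 CPM in sufficient mice (adjusted p = 0.529). Cyp26b1, which degrades retinoic acid and is induced by it, fell by 3.32 (SE 0.24, adjusted p = 1.38e-14) and was not called in inguinal nodes (−0.67, adjusted p = 0.427). In the inguinal node Ccr9 was called at a log2 fold change similar in size to that of Cyp26b1 (−0.68 ± 0.15). The calls alone therefore do not set these genes apart, and a link between them was not tested. Dhrs3, a retinaldehyde reductase, fell by 0.63 (SE 0.10, adjusted p = 7.79e-06), and the receptor gene Rara rose by 0.50 ± 0.06 (adjusted p = 6.02e-09).

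The vascular and epithelial partners of the receptors split. Of 10 tested ligand and vascular genes 2 rose and 2 fell, against 11.3 and 8.92% of all genes, with a median of −0.01. Madcam1, the addressin bound by α4β7, fell by 0.74 (SE 0.13, adjusted p = 3.42e-05) and stood at 29.2 ± 9.67 CPM in deficient and 58.5 ± 7.27 CPM in sufficient jejunal nodes. In inguinal nodes it stood at 7.62 ± 1.81 CPM in deficient and 8.24 ± 1.47 CPM in sufficient mice (adjusted p = 0.973). Vcam1, a ligand of α4β1, rose by 0.30 ± 0.06 (adjusted p = 0.000281), Fn1, which encodes fibronectin, fell by 0.48 (SE 0.12, adjusted p = 0.00334), and Cdh1, which encodes the αEβ7 ligand E-cadherin, rose by 1.10 ± 0.30 (adjusted p = 0.00717). In single nodes Madcam1 was called in duodenal and jejunal and Cdh1 in ileal nodes only.

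None of 12 other homing receptors tested fell with edgeR, also at an unadjusted p under 0.05, against 8.92% of all genes. Of the 12, 5 rose, against 11.3% of all genes, and the median was 0.29. Gpr15, a receptor of T cells that home to the colon, rose in every node, with 9.33 ± 1.16 CPM in deficient and 2.64 ± 0.626 CPM in sufficient duodenal nodes and 3.53 ± 0.604 CPM in deficient and 1.65 ± 0.453 CPM in sufficient inguinal nodes (gut-draining mean 1.39 ± 0.11, adjusted p = 4.7e-13). Cxcr3, a receptor of effector T cells, rose by 0.71 ± 0.11 (adjusted p = 2.52e-06), Selplg, which encodes the selectin ligand PSGL-1, by 0.41 ± 0.06 (adjusted p = 3.9e-06) and Cxcr6 by 0.57 ± 0.09 (adjusted p = 7.21e-06). Of 6 tested genes of skin homing 2 rose and 2 fell, against 11.3 and 8.92% of all genes, led by the chemokine receptor gene Ccr8 (1.44 ± 0.16, adjusted p = 5.7e-09), with Ccl17, a ligand of CCR4, at −0.74 ± 0.19 (adjusted p = 0.00332). Of 8 tested chemokines of mucosa and stroma only Cxcl9, a ligand of CXCR3, was called (0.78 ± 0.16, adjusted p = 0.000231), which is no larger a share than the 20.2% of all genes.

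**Figure D5:**
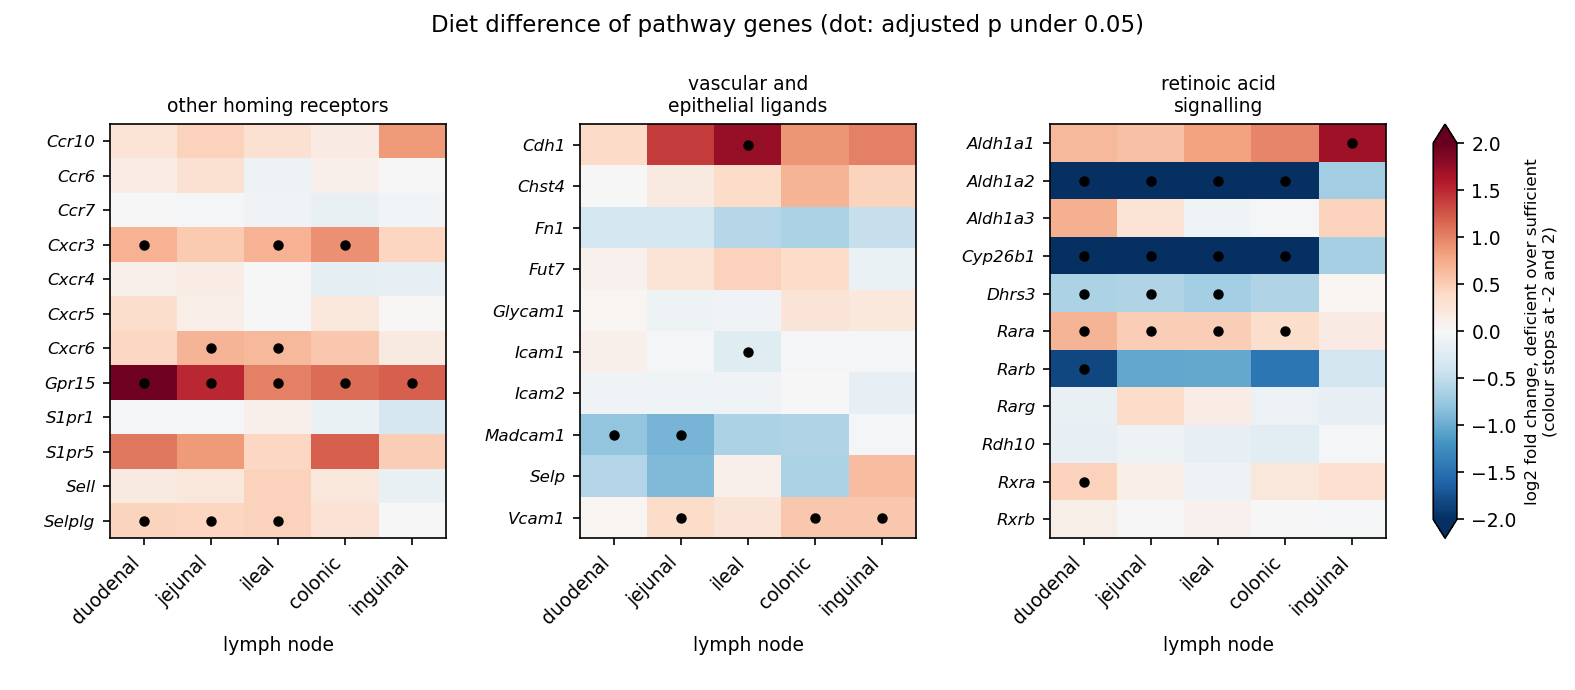
Log2 fold change, deficient over sufficient, of the tested genes of 3 lists in each lymph node as colour, which stops at −2 and 2, with a dot where the adjusted p was under 0.05. Gpr15 is marked in all 5 nodes, and Aldh1a2 and Cyp26b1 in the 4 gut-draining nodes.

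Other integrin chains moved less than Itgae. Of 13 tested partners 1 rose and 4 fell, against 11.3 and 8.92% of all genes, with a median of −0.09. Itga1, the collagen-binding α1 chain, fell by 0.44 (SE 0.05, adjusted p = 8.4e-10), Itgax, the CD11c chain of dendritic cells, by 0.53 (SE 0.07, adjusted p = 3.74e-07) and Itgam, the CD11b chain, by 0.47 (SE 0.10, adjusted p = 0.000382), whereas Itgal, the LFA-1 chain, rose by 0.22 ± 0.06 (adjusted p = 0.00821). Of 12 tested regulators linked to Itgae, Itgb7 or Ccr9, 6 rose and none fell with edgeR (1 at an unadjusted p under 0.05), against 11.3 and 8.92% of all genes, with a median of 0.24. Tgfb1, which encodes the cytokine that induces Itgae, rose by 0.42 ± 0.06 (adjusted p = 1.87e-06), and Nfatc1, Runx1 and Batf by 0.30 ± 0.08, 0.38 ± 0.10 and 0.25 ± 0.07 (adjusted p = 0.00693, 0.00695 and 0.00721). Runx3, a factor of Itgae expression in CD8 T cells, was not called (0.26, adjusted p = 0.0977).

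Markers of the cells that carry Ccr9 and Itgae moved in several directions beside them, and their part in the results was not tested. Of 9 type 1 dendritic cell markers 6 fell and none rose with edgeR, also at an unadjusted p under 0.05, against 8.92 and 11.3% of all genes, with a summed level of 641 to 980 CPM in deficient and 680 to 1088 CPM in sufficient libraries. Clec9a fell by 1.22 (SE 0.10, adjusted p = 6.39e-13), Snx22 by 0.75 (SE 0.08, adjusted p = 1.15e-09) and Batf3 by 0.59 (SE 0.10, adjusted p = 1.16e-05), opposite to Itgae. Of 7 CD4 and regulatory T cell markers 6 rose, against 11.3% of all genes, with sums of 372 to 523 CPM in deficient and 276 to 484 CPM in sufficient libraries, led by Icos (0.56 ± 0.08, adjusted p = 3.61e-07) and Il2ra (0.53 ± 0.08, adjusted p = 1.87e-06). Of 6 tested CD8 T cell markers 4 rose, against 11.3% of all genes, led by Eomes (0.95 ± 0.11, adjusted p = 4.61e-09), with sums of 468 to 878 CPM in deficient and 406 to 956 CPM in sufficient libraries. The mean CD8 sum did not move in 1 direction. In deficient against sufficient mice it was lower in duodenal (645 against 713 CPM), colonic (597 against 634 CPM) and inguinal nodes (698 against 824 CPM). It was higher in jejunal (635 against 576 CPM) and ileal nodes (553 against 464 CPM).

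Plasmacytoid dendritic cells, another carrier of Ccr9, had 5 of 10 markers higher and none lower over the gut-draining mean, also at an unadjusted p under 0.05, against 11.3 and 8.92% of all genes, led by Cox6a2 (1.13 ± 0.23, adjusted p = 0.000263), and sums of 754 to 3062 CPM in deficient and 671 to 4304 CPM in sufficient libraries. Both high ends were in duodenal nodes, the site of the 2 libraries rich in pancreatic genes. In the other nodes the sums reached at most 1053 CPM in deficient and 1011 CPM in sufficient libraries, both inguinal. The part of pancreatic RNA in the duodenal sums was not tested. The defining marker Siglech stood at 56.1 ± 8.10 CPM in deficient and 53.4 ± 3.77 CPM in sufficient duodenal nodes and was not called (−0.01, adjusted p = 0.948). Of 8 T cell markers 4 rose, against 11.3% of all genes, led by Cd3e (0.35 ± 0.07, adjusted p = 0.00031). Of the markers of plasmacytoid and type 1 dendritic cells and of CD8 and CD4 T cells, only Snx22 was lower in all 5 nodes, against 0.0925% of all genes. At that share a short list would be expected to hold none. What part the carriers had in the fall of Ccr9 was not tested. Of 4 tested thymus genes Cd1d1 fell (−0.97 ± 0.07, adjusted p = 1.52e-13) and Dntt rose (0.43 ± 0.16, adjusted p = 0.0452), against 8.92 and 11.3% of all genes. The 8 genes of the thymus list summed to 34.8 to 54.9 CPM in deficient and 46.2 to 115 CPM in sufficient libraries, with means of 47.4 CPM in deficient and 82.8 CPM in sufficient duodenal nodes. Cd1d1 reached 684 estimated counts in a library and no other gene of the list more than 73.2. Of genes tied to thymic epithelium, Prss16 and Psmb11 had a count of at least 1 in 50 and 48 libraries, with up to 31.6 and 14.3 estimated counts, and Foxn1 in 6 libraries, with at most 2.02.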

How the data were processed

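The labels' protocols give TRIzol extraction from lymph nodes and poly(A) selection. The authors deposited 1 table of estimated counts per gene. The submitters' processing notes name the tools edgeR, limma and kallisto and the builds mm10 and GRCm39. Their roles and versions, and the counting strand, were not stated in them. Column names hold "control" for sufficient libraries and "3rd", whose meaning is not stated, for deficient ones. No library was left out. Of 56600 entries 379 had no gene name.

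Estimated counts were rounded to whole numbers, filtered with filterByExpr (18387 genes) and scaled with TMM. One edgeR quasi-likelihood model held 10 group means and sex (edgeR 4.0.16, limma 3.58.1, R 4.3.3). P-values were adjusted by the Benjamini-Hochberg method over all genes of a comparison, with a threshold of 0.05. SEs derive from the fold change and F statistic and are approximate. All deficient mice were female, so the sex term rests on sufficient libraries.

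The 5 genes, the lists and the tests were chosen with earlier results of these data known. Named beside the 5 genes were up to 4 genes per pathway list and 3 per marker list with the smallest adjusted p, and the 5 genes of highest Pearson r on log2 CPM (prior count 2). Siglech, Runx3, Cd3e as a T cell marker, Foxn1, Cdx2 and Alpi were added as defining genes.

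Positions are from GENCODE M21 (GRCm38) and promoter windows from RefSeq (GRCm38.p6), which matched 4 of the 5 genes and not Itgae. Alternatives were limma-voom with and without duplicateCorrelation, DESeq2 1.42.0, RLE size factors, omission of the filter or of the sex term, a filter of 1 CPM in 5 libraries, fits on female mice or on 1 node or diet only, the number as a block, leaving out each number of a diet, leaving out or fitting the libraries of low Gm19220 share, and leaving out 2 libraries rich in pancreatic genes. The fit was tested on simulated counts. Figures used matplotlib 3.10.9 in Python 3.11.15.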

Additional observations from a re-analysis of the deposited data

Results flagged for a closer look

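In deficient jejunal nodes the highest Ccr9 library, number 4, stood at 38.2 CPM, against 23.7 to 27.6 CPM in the other 4 libraries, farther from them than Dixon's test allows at 5 libraries (critical value 0.71). Of 50 groups tested, 5 genes in 10 groups, this was the only 1 past the limit, and chance flags about 1 group in 20. Without all deficient libraries of number 4 the jejunal log2 fold change between diets was −0.97 ± 0.16 (adjusted p = 9.58e-05, edgeR). The same library had 99.2 CPM of Itgae, the highest of its group.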

How the results depend on the processing

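Of 1889 values recomputed under alternatives, 1821 stayed on their side of the threshold, and those of them that were called kept their direction. A further 65 lost the call, 2 gained it and 1 was called in the reversed direction. Where a value was called neither in the main fit nor in the alternative, its direction was not compared. The count of 12 called diet comparisons of 30 ran from 9 to 12 when a number was left out. It was 8 without the libraries of low Gm19220 share, 9 with female mice only and 13 without the sex term. With only the libraries of that node 5 of 25 were called. Those fits give no gut-draining mean, where Ccr9 and Itgae were both called, so 5 and 12 are not over the same comparisons. The 1 call between nodes in deficient mice was 0 without the libraries of low Gm19220 share and ran from 0 to 1 when a number was left out. The 2 calls in sufficient mice became 1 with female mice only and ran from 1 to 2. They became 3 with the sufficient libraries alone and with limma-voom and duplicateCorrelation, where Ccr9 in small intestinal against colonic nodes was gained (adjusted p = 0.0441 and 0.0466). Interactions stayed at 0 calls. The reversed value was Itgb7 over the gut-draining mean without the sex term (−0.17). The cause was not tested, beyond fewer libraries entering the smaller fits. The ileal Ccr9 call was lost with female mice only (adjusted p = 0.116) and with ileal libraries only (adjusted p = 0.0795). Genes called between diets ran from 314 to 2103 in duodenal (1864 as reported), 178 to 1002 in jejunal (837), 109 to 1343 in ileal (1048), 44 to 620 in colonic (409), 17 to 261 in inguinal nodes (154) and 2002 to 6051 over the gut-draining mean (3712). A replicate block as a fixed term gave 12, 1, 2 and 0 calls, as without it. The number as a correlated block (limma-voom) gave 11, 1, 3 and 0, without the colonic Ccr9 call (adjusted p = 0.056). The numbers were not taken as pairs: same-numbered deviations correlated at −0.198 at the lowest and 0.0996 at the median in deficient and at −0.126 and 0.164 in sufficient mice, with 19 of 25 libraries of each diet closest to their own number. Different numbers correlated at −0.033 in deficient and −0.0386 in sufficient mice at the median, so libraries of 1 number were more alike. If they share a mouse, the p-values over the gut-draining mean and between sexes are too small. The diet p-values of single nodes rest on the same sex term and may then be too small as well. Depth limits Ccl25 most, at 26.7 to 73.5 estimated counts a library.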

Other observations

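Cell types that use these receptors outside the lists above also moved between diets over the gut-draining mean. Of 8 markers of IgA plasma cells, which home to the intestine with CCR9 and α4β7, 4 rose and none fell with edgeR, also at an unadjusted p under 0.05, against 11.3 and 8.92% of all genes, led by the immunoglobulin chaperone gene Mzb1 (log2 fold change 0.85 ± 0.11, adjusted p = 1.36e-07). Their summed level was 197 to 5423 CPM in deficient and 189 to 5463 CPM in sufficient libraries, with the low ends in inguinal nodes. In colonic nodes the mean sum was lower on the deficient diet, at 2037 CPM in deficient and 3256 CPM in sufficient mice. Mast cells, whose progenitors enter the intestine through α4β7, had 7 of 8 markers higher and 1 lower, against 11.3 and 8.92% of all genes, with sums of 19.3 to 445 CPM in deficient and 30.2 to 61.9 CPM in sufficient libraries, while neither chain of α4β7 was called. In colonic nodes none of the 8 was called with edgeR (6 higher and 1 lower at an unadjusted p under 0.05), and the mean sum was 44.9 CPM in deficient and 46.8 CPM in sufficient mice. Of 8 endothelial markers 5 fell, against 8.92% of all genes, led by Prox1, the factor of lymphatic endothelium (−0.81 ± 0.10, adjusted p = 2.73e-08). Madcam1, given above, is 1 of these 5. The mean sum of the 8 was lower on the deficient diet in duodenal, jejunal and ileal nodes. It was higher in colonic (743 CPM in deficient against 705 CPM in sufficient) and inguinal nodes (654 against 594 CPM).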
